A study of Homo sapiens with 6 samples.

Results

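The 43 genes described here encode glycolytic enzymes, glucose and lactate transporters, subunits and prolyl hydroxylases of the hypoxia-inducible factors (HIF), and known HIF target genes. They were chosen by name as a list, with earlier results of these data known. They were matched to the gene symbols of the count files, where all 43 were found among 24462 symbols. Of these, 42 had enough counts to be tested among 12650 genes. The remaining one, ALDOC, an aldolase isozyme, had 2 to 8 counts in every library and was not tested. In glycolysis, glucose enters through facilitative transporters, is phosphorylated and split, and yields pyruvate, which is reduced to lactate or passed to the mitochondrion. When oxygen is low, prolyl hydroxylases of the EGLN family stop marking the HIF alpha subunits for degradation, and the subunits bind DNA with ARNT and raise the transcription of many of these genes. Tumour cells often run glycolysis at high rates with oxygen present, and HIF-1 alpha is controlled mainly at the protein level, which the RNA measured here does not show.

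RNA was measured in MDA-MB 231, an established triple-negative breast cancer cell line, 48 h after transfection, with the QuantSeq 3′ mRNA method, in which reads come from the 3′ ends of polyadenylated RNAs. The first group received a negative control (NC) mimic, the second a miR-200a mimic (100 nM), and the third the miR-200a mimic (100 nM) with an ELK3 expression plasmid (30 ng), with 2 libraries in each group. ELK3 is an ETS-family transcription factor, and the third group served to ask what returning it does to cells with miR-200a. The plasmid is named pcDNA3.1 Hygro(+)-ELK3 in the sample labels and pcDNA3.1-Flag-ELK3 in the protocol, it lacks the ELK3 3′UTR, and the labels name no empty plasmid for the other groups. All groups are a single cell line, and the labels do not say whether the libraries of a group came from separate cultures. The methods of the study call the libraries replicates and state independent experiments for its statistics in general, without naming these libraries. The p-values therefore measure only the spread between these libraries, which may be technical.

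Totals were 3055915 to 4868004 counts per library, so that 3 counts, taken as the smallest amount a library can show, were 0.611 to 0.979 CPM, that is, scaled for library size. This floor covers counting error only. ELK3 itself had 618 and 509 counts under the NC mimic, 493 and 505 under miR-200a, and 406 and 337 in the third group. With miR-200a against the NC mimic, ELK3 had a log2 change of -0.56 (standard error, SE, 0.15, edgeR adjusted p = 0.232). It was not higher where the plasmid was added, with a log2 change of -0.23 (SE 0.15, adjusted p = 0.354) against miR-200a. It was lower than with the NC mimic, with a log2 change of -0.79 (SE 0.15, adjusted p = 0.0117), a call that was lost without either NC mimic library (adjusted p up to 0.155). That group is therefore named by its label, as the pair labelled miR-200a plus ELK3. How 3′ reads from the plasmid transcript were counted is not stated, so this check is limited. The study reports, by qRT-PCR and western blot in this cell line, that ELK3 fell with the miR-200a mimic. It reports a return to the control level with the plasmid added. Whether those samples are the ones sequenced is not stated. The 2 libraries of the pair labelled miR-200a plus ELK3 also differed more from each other than the other pairs. The root mean square of their log2 difference was 0.464 over the tested genes of the list, against 0.236 for the NC mimic pair and 0.153 for the miR-200a pair. All 8 markers of MDA-MB 231 cells that were checked had over 10 counts in every library. Defining markers of blood and endothelial cells reached at most 13 counts, COL1A1 was the only fibroblast marker of 5 with more than 3 counts, and of 8 luminal and epithelial markers ESR1, PGR and FOXA1 stayed at or below 3. Of the other 5, ERBB2 had 99 to 232 counts, KRT19 143 to 392, EPCAM 39 to 140 and GATA3 14 to 42, and CDH1, which encodes E-cadherin, had 1 and 0 counts under the NC mimic, 11 and 12 under miR-200a, and 3 and 3 in the third group. The cells are a bulk sample, in which fewer cells of a type and less RNA per cell cannot be told apart.

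The sequence that ties the treatment to RNA is the seed of miR-200a, bases 2 to 8 of the mature strand, which pairs with sites in the 3′UTR of messenger RNAs. The mature sequence from RefSeq (GRCh38.p14) is shown with the seed in capitals.

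hsa-miR-200a-3p: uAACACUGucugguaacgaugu

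The DNA letters that pair with this seed are CAGTGTT. They were found, on the transcribed strand, in the longest 3′UTR (GENCODE 29, GRCh38) of 9 of the 43 genes (20.9%), against 2454 of 11241 tested genes with a 3′UTR (21.8%). These 9 genes were the lactate exporter SLC16A3, the enzymes PFKM, PGK1 and PGAM1, the pyruvate dehydrogenase kinase PDK1, the prolyl hydroxylases EGLN1 and EGLN3, the mitophagy receptor BNIP3, and the collagen crosslinking enzyme LOX. PGK1 had 3 matches and each of the others 1. The match of PDK1 lies at bases 11974 to 11980 of a 12700-base 3′UTR. Whether these cells use that 3′UTR was not tested. The sites of PGK1 and PDK1 that are followed by an A, the longest class of match, and the site of LOX are shown with the match in capitals.

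PGK1, chrX:78126103-78126132, plus strand: aaagaaagtgagCAGTGTTagcttagttct

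PDK1, chr2:172607931-172607960, plus strand: ggagctgtgtttCAGTGTTagactgtagtt

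LOX, chr5:122066490-122066519, minus strand: tgtgaattaacaCAGTGTTtcaattctgta

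With miR-200a against the NC mimic, the log2 changes of these 9 genes ran from -0.55 for SLC16A3 to 0.74 for EGLN3 with a median of -0.19. Of the 9, 7 were below 0, against 26 of the 42 tested genes of the list and 52.8% of all genes tested. None of the 9 passed the test in that comparison (edgeR's quasi-likelihood test, adjusted p under 0.05 over all genes tested). A match is a description of the letters, not a site shown to work.

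HIF binds a core of the letters ACGTG or GCGTG. Both were searched on both strands in the RefSeq promoters (GRCh38.p14, 300 bases, 250 before to 50 after the start), where the palindrome CACGTG counts once on each strand. At least one match was in 28 of the 37 promoters found for the list (75.7%), in 63.6% of the promoters of tested genes and in 48.4% of all 27305 promoters. No promoter entry was matched for SLC2A3, SLC16A1, VEGFA, BNIP3L, NDRG1 and LOXL2. Stretches without an annotated exon upstream of the start were sought for the genes that were lower in the pair labelled miR-200a plus ELK3. ANKRD37, ADM, ENO2, CA12 and SLC2A1 had none, and that of P4HA1, 142 bases long, held no match and is not shown. The stretches of the 4 genes in which one held a match are shown with the matches in capitals.

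LOX, chr5:122078361-122078509, minus strand: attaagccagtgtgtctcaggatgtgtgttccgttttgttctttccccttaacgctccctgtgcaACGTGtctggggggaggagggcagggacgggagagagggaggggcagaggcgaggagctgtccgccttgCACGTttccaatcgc

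EPAS1, chr2:46297157-46297401, plus strand: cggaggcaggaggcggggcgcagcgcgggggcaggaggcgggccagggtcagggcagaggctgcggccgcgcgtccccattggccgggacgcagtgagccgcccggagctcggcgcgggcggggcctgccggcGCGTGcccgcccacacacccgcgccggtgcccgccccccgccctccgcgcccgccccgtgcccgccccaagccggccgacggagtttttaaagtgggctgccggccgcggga

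HIF1A, chr14:61695263-61695512, plus strand: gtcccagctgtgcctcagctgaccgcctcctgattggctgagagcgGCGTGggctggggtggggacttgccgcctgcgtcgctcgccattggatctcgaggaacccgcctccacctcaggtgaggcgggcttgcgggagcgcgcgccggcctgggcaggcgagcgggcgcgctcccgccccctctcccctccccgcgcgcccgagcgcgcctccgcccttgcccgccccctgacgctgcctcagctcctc

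PFKFB4, chr3:48556924-48556982, minus strand: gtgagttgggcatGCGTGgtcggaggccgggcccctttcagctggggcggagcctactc

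The 250 bases before the LOX start held 4 matches to ACGTG, those of ANKRD37 held 3, and those of EPAS1, ADM, P4HA1, PFKFB4, ENO2, HIF1A and CA12 held 1 match to either core. Of the genes that fell between miR-200a and the pair labelled miR-200a plus ELK3, 10 had a promoter entry and all 10 promoters held a match, as did 17 of the 26 promoters of tested genes on the list that were not called. For ACGTG alone these were 4 of 10 (40%) and 11 of 26 (42.3%), and for GCGTG alone 6 of 10 (60%) and 11 of 26 (42.3%). SLC2A1 was among the 10, with no match in the 250 bases before its start. These shares are descriptions, and promoters of expressed genes hold the letters more often than promoters at large.

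The first comparison asked what miR-200a alone did to these genes. No gene of the list passed the test against the NC mimic (0 of 42), where edgeR called 0.269% of all genes tested (0.213% as higher and 0.0553% as lower). At an unadjusted edgeR p under 0.05 there were 5 of the 42, and 1169 of all 12650 genes tested. DESeq2 called 1, LOXL2, where it called 91 of 18649 genes with counts, and limma on quantile-normalized values called 0. The median log2 change was -0.07 over the list and -0.02 over all genes tested. Of the 14 HIF targets, 11 were below 0 and none was called, with a median of -0.11. Over all genes tested, 52.8% were below 0. The 20 tested genes of glycolysis and pyruvate fate lay between -0.30 (ENO2) and 0.15 (GPI), the former 1.23-fold lower. HIF1A, SLC2A1, LDHA, GAPDH and VEGFA, whose levels are followed further on, lay between -0.04 (VEGFA) and 0.08 (GAPDH).

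The 5 genes at an unadjusted p under 0.05 were SLC2A3, SLC16A3, EPAS1, ANKRD37 and LOXL2. SLC2A3, the high-affinity glucose transporter GLUT3, had a mean of 123 CPM with the NC mimic and 178 CPM with miR-200a, a log2 change of 0.53 (SE 0.13, adjusted p = 0.178). LOXL2, a lysyl oxidase that crosslinks collagen, had 1436 and 1012 counts under the NC mimic and 1025 and 1064 with miR-200a, or 319.8 and 330.2 CPM against 212.8 and 216.8 CPM, a log2 change of -0.60 (SE 0.12, adjusted p = 0.0789). Scaled to library size, all 5 genes were without overlap between the groups. So were genes of the list with a larger p, such as PGK1. The share of all genes without overlap was not counted, here or in the other comparisons. Lack of overlap is read from the same values as the p-values and adds no support to them. With a model of the 2 groups alone, which leaves out the pair of libraries that differed most, 8 genes of the list were called, where that model called 7.9% of all genes. SLC2A3, EPAS1 and NDRG1 were higher and SLC16A3, ENO2, ANKRD37, P4HA1 and LOXL2 lower with miR-200a in that model, with log2 changes from -0.58 for LOXL2 to 0.55 for SLC2A3. Their direction was the same in both models.

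The second comparison set the pair labelled miR-200a plus ELK3 against those with miR-200a. Of the 42 genes, 15 fell and none rose at an adjusted p under 0.05 (35.7%), where the test called 12.9% of all genes, 7.03% higher and 5.91% lower. The median log2 change was -0.29 over the list and 0.02 over all genes tested. The falls lay mainly among the HIF targets, of which 9 of 14 passed (64.3%, median -0.75), while 2 of the 20 tested genes of glycolysis and pyruvate fate passed (10%, median -0.10). Of the 4 transporters, 2 passed, as did 2 of the 4 HIF subunits and hydroxylases. All 14 HIF targets had a log2 change below 0, from -1.66 for LOX to -0.07 for ANGPTL4. With a model of the 2 groups alone, 8 genes of the list passed, all of them lower, where 4.58% of all genes did. They were SLC2A3, HIF1A, EPAS1, ADM, BNIP3L, NDRG1, ANKRD37 and LOX. Of these, only SLC2A3 and NDRG1 also passed with limma on quantile-normalized values. The count of 15 depended on the library left out, as did the number of calls over all genes. Both were lower without a miR-200a or NC mimic library and higher without a library labelled miR-200a plus ELK3. The median log2 change of the list ran from -0.37 to -0.29 in these fits.

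**Figure D1:**
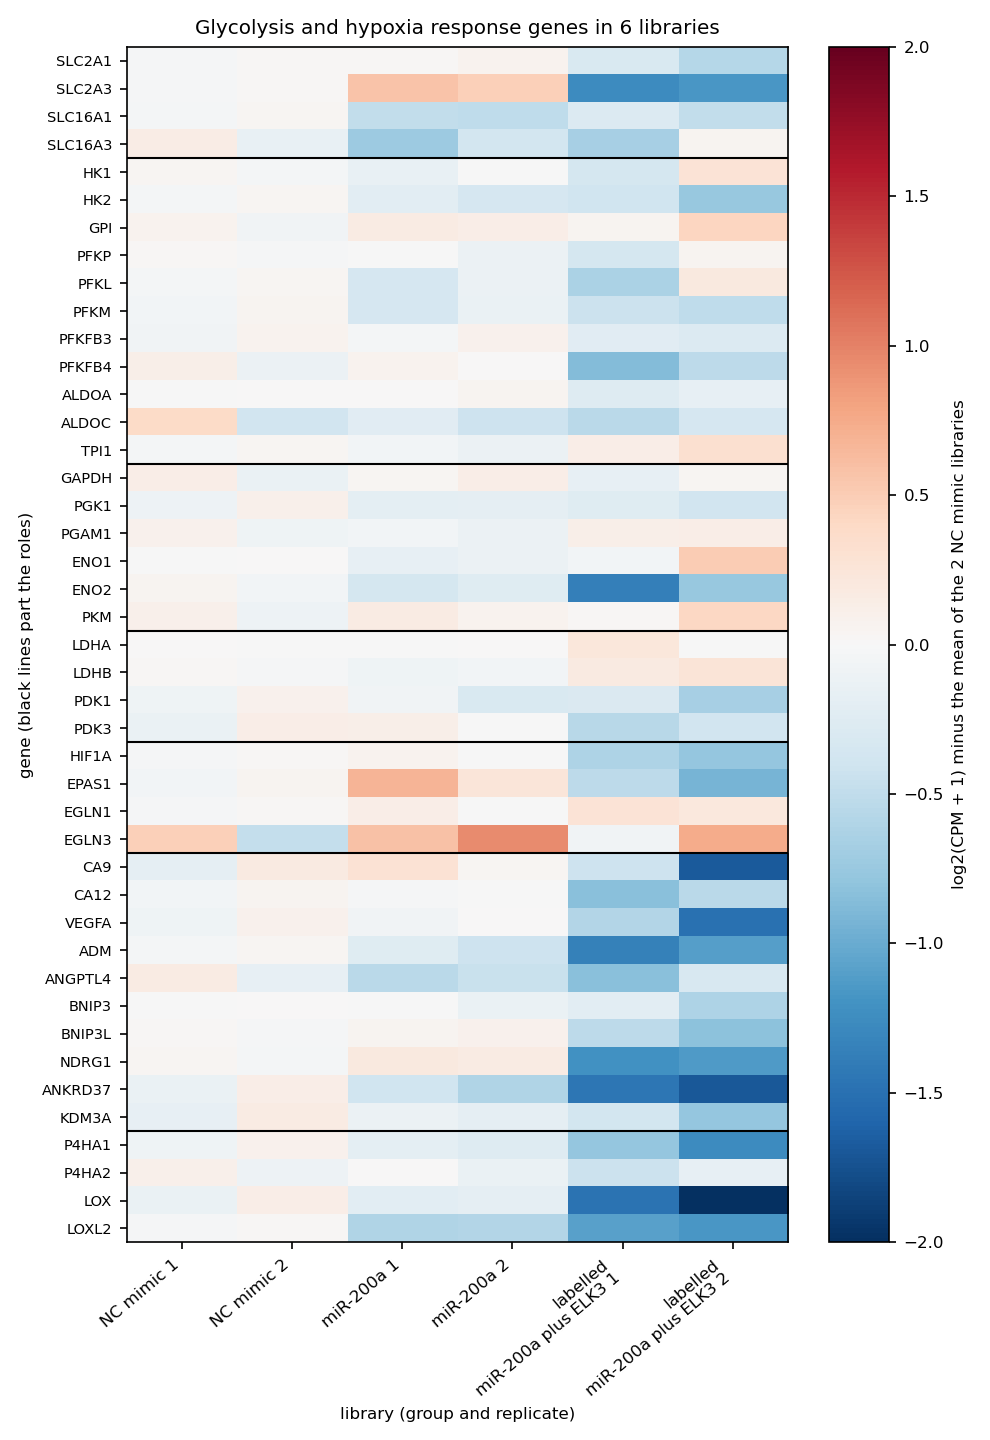
Heat map of the 43 genes (rows, ordered by role, parted by black lines) in the 6 libraries (columns). Colour is log2(CPM + 1) minus the mean of the NC mimic libraries, from blue (lower) to red (higher), cut at 2 either way; the deepest blue is in the HIF targets and SLC2A3 in the 2 libraries of the pair labelled miR-200a plus ELK3.

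Among the transporters, SLC2A3 changed most. It had 542 and 386 counts under the NC mimic, 887 and 839 under miR-200a, and 215 and 232 in the pair labelled miR-200a plus ELK3. The last pair was below every other library, and the log2 change against miR-200a was -1.75 (SE 0.14, edgeR adjusted p = 0.000178), or 3.37-fold lower. SLC2A1, the basal glucose transporter GLUT1, had 895 and 631, 992 and 1050, and 692 and 580 counts in the same order of groups. Its CPM was 163.9 and 136.3 in the pair labelled miR-200a plus ELK3 and 199.3 to 213.9 in the other 4, without overlap, and its log2 change was -0.48 (SE 0.13, adjusted p = 0.0397; 0.0992 with a model of the 2 groups alone). The ratio of SLC2A1 to SLC2A3 counts within a library was 1.65 and 1.63 with the NC mimic, 1.12 and 1.25 under miR-200a, and 3.22 and 2.50 in the pair labelled miR-200a plus ELK3. The 2 monocarboxylate transporters that carry lactate did not pass the test, with log2 changes of 0.15 for SLC16A1 (14 to 22 counts per library) and 0.27 for SLC16A3.

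In upper glycolysis, from hexokinase to the triose phosphates, 1 of 10 tested genes fell (10%, where 12.9% of all genes were called). PFKFB4, which makes the fructose 2,6-bisphosphate that activates phosphofructokinase, had 198 and 114 counts under the NC mimic, 204 and 200 under miR-200a, and 92 and 118 in the pair labelled miR-200a plus ELK3. Scaled to library size the last pair was the lowest, and the log2 change was -0.75 (SE 0.19, adjusted p = 0.0328; 0.0746 with a model of the 2 groups alone). HK2, the inducible hexokinase, had 502 and 364, 478 and 449, and 367 and 288 counts, with a log2 change of -0.30 (SE 0.16, adjusted p = 0.221) against miR-200a. The values of the other 8 tested genes (HK1, GPI, PFKP, PFKL, PFKM, PFKFB3, ALDOA and TPI1) ran from -0.28 for PFKFB3 to 0.31 for TPI1 on the log2 scale.

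In lower glycolysis, from GAPDH to pyruvate kinase, 1 of 6 genes fell (16.7%, where 12.9% of all genes were called). ENO2, the enolase isozyme known from neurons, had 1055 and 665 counts under the NC mimic, 853 and 932 under miR-200a, and 365 and 566 in the pair labelled miR-200a plus ELK3. The last pair was below all other libraries, and the log2 change was -0.74 (SE 0.18, adjusted p = 0.0279; 0.0779 with a model of the 2 groups alone). ENO1, the ubiquitous enolase, had 5562 and 3867, 5348 and 5641, and 5058 and 7558 counts, with a log2 change of 0.40 (SE 0.16, adjusted p = 0.128). Only 1 library of the last pair, with 1776 CPM, was above the 1110 to 1262 CPM of the other 5. The ratio of ENO1 to ENO2 counts was 5.27 and 5.82 with the NC mimic, 6.27 and 6.05 under miR-200a, and 13.9 and 13.4 in the pair labelled miR-200a plus ELK3. GAPDH, which oxidizes glyceraldehyde 3-phosphate, had 12893 and 7319, 13017 and 14047, and 9826 and 11502 counts, with a log2 change of -0.15 (SE 0.12, adjusted p = 0.457). PGK1, the first step that yields ATP, had 1374 and 1079, 1381 and 1415, and 1177 and 1070 counts, with a log2 change of -0.12 (SE 0.12, adjusted p = 0.562). The groups overlapped in CPM for GAPDH but not for PGK1. PGK1 had 306.0 and 352.1 CPM with the NC mimic, 286.7 and 288.3 under miR-200a, and 278.7 and 251.5 in the pair labelled miR-200a plus ELK3. For HK2 and BNIP3 as well, that pair was the lowest in CPM without passing the test against miR-200a. PGAM1 and PKM also did not pass (0.22 and 0.11 on the log2 scale). Of the annotated pseudogenes, 62 carry the name of GAPDH and 13 that of PGAM1, and how reads shared with them were counted is not stated, which makes these levels uncertain. Among the genes called in a comparison, SLC2A3 has 3 such pseudogenes and HIF1A and HK2 have 1 each, with the same limit.

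None of the 4 genes of pyruvate fate passed the test in this comparison, where 12.9% of all genes were called. LDHA, the lactate dehydrogenase subunit that favours lactate, had 8032 and 5404 counts under the NC mimic, 8499 and 8763 under miR-200a, and 8748 and 7481 in the pair labelled miR-200a plus ELK3. Its CPM was 1758 to 1789 in 5 libraries and 2072 in the first of the last pair, with a log2 change of 0.11 (SE 0.11, adjusted p = 0.542). LDHB had a log2 change of 0.29 (SE 0.11, adjusted p = 0.106). PDK1, a kinase that switches off pyruvate dehydrogenase, had 325 and 249, 351 and 303, and 263 and 205 counts, with a log2 change of -0.29 (SE 0.18, adjusted p = 0.303), and its relative PDK3 had -0.54 (SE 0.20, adjusted p = 0.0973). The summed level of the 21 genes of glycolysis and pyruvate fate was 10280 to 11870 CPM in the 6 libraries, and both ends of that range were libraries of the pair labelled miR-200a plus ELK3.

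**Figure D2:**
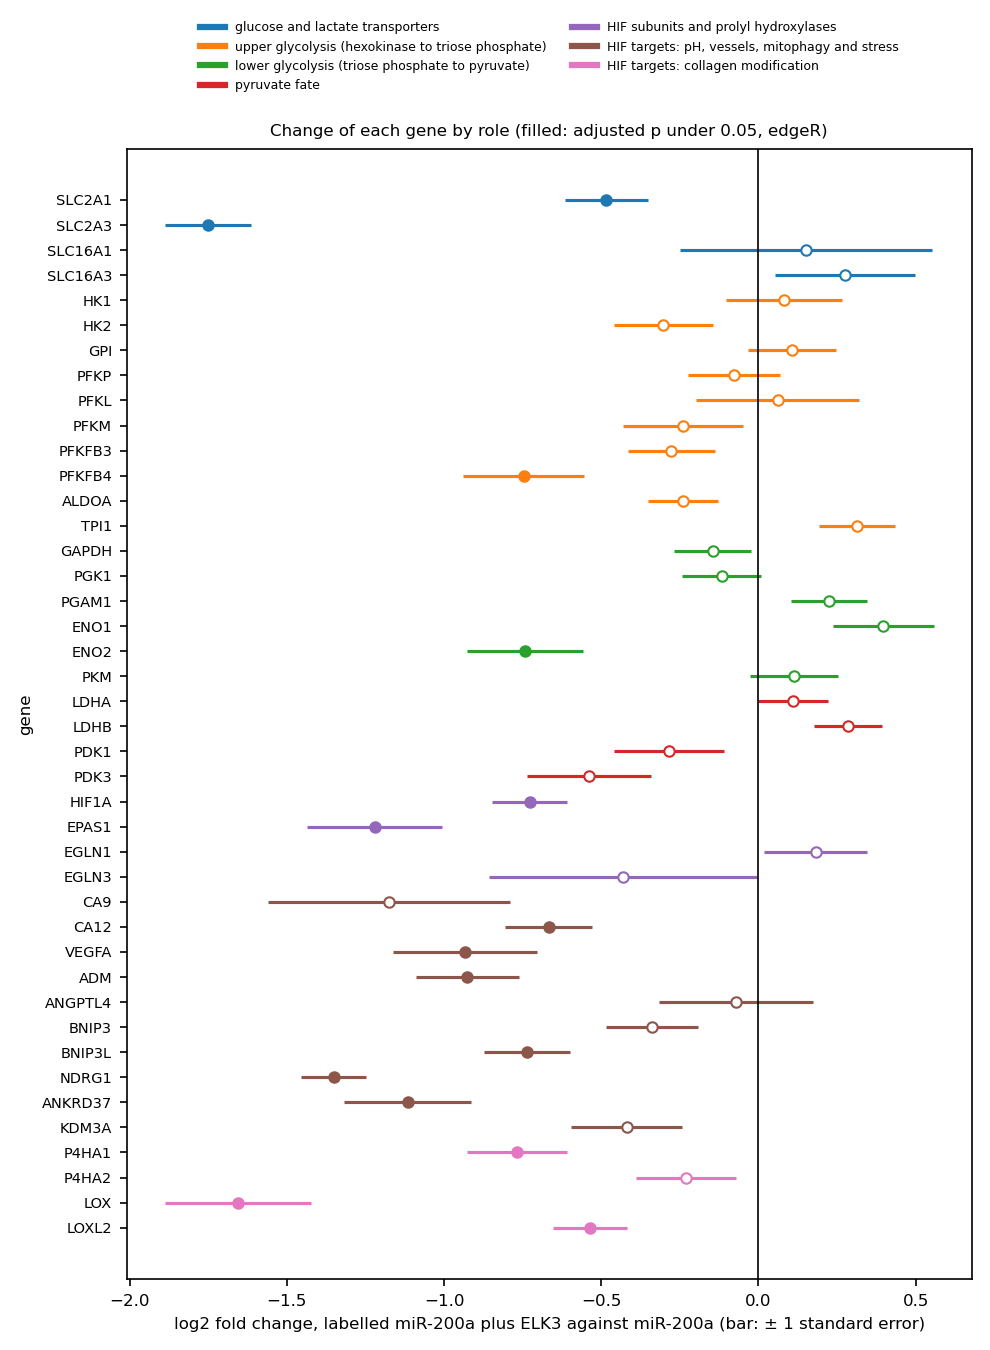
Log2 fold change of each tested gene (x axis) between the pair labelled miR-200a plus ELK3 and those with miR-200a, with bars of 1 standard error, coloured by role; filled points passed the test (adjusted p under 0.05). The 15 filled points are all to the left of 0, from SLC2A3 at -1.75 to SLC2A1 at -0.48.

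The RNAs of the HIF alpha subunits HIF1A and EPAS1 fell; HIF3A, another alpha subunit outside the list, had 0 to 3 counts and was not tested. HIF1A, the subunit of HIF-1, had 1436 and 1022 counts under the NC mimic, 1656 and 1589 under miR-200a, and 895 and 813 in the pair labelled miR-200a plus ELK3. Scaled to library size the last pair, at 212.0 and 191.1 CPM, was below the 319.8 to 343.8 CPM of the other 4 libraries, and the log2 change against miR-200a was -0.73 (SE 0.12, adjusted p = 0.00652), or 1.66-fold lower. EPAS1, which encodes HIF-2 alpha, had 181 and 133, 326 and 243, and 122 and 91 counts, with a log2 change of -1.22 (SE 0.21, adjusted p = 0.00818). It was highest in the miR-200a pair and lowest in the pair labelled miR-200a plus ELK3. EGLN1, the main oxygen-sensing prolyl hydroxylase, had 159 to 191 counts in 5 libraries and 112 in the second NC mimic library, with a log2 change of 0.18 (SE 0.17, adjusted p = 0.493). EGLN3, a hydroxylase that is itself a HIF target, had 30 and 9, 35 and 47, and 18 and 35 counts, with a log2 change of -0.43 (SE 0.43, adjusted p = 0.532). Its groups overlapped, and at these counts a change of this size was not detectable.

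Among the HIF targets of stress, vessels, pH and mitophagy, 6 of 10 fell (60%, where 12.9% of all genes were called). NDRG1, a stress-response gene strongly induced by hypoxia, had 9993 and 6424 counts under the NC mimic, 11859 and 11835 under miR-200a, and 3929 and 4177 in the pair labelled miR-200a plus ELK3. The CPM was 2161 ± 91.4 (SD, n = 2), 2437 ± 35.9 (SD, n = 2) and 956 ± 36.2 (SD, n = 2) in the same order, and the log2 change against miR-200a was -1.35 (SE 0.10, adjusted p = 0.000178), or 2.55-fold lower. Both NDRG1 and SLC2A3 fell in close replicate pairs. VEGFA, the vascular endothelial growth factor, had 3948 and 3035, 4266 and 4584, and 2627 and 1408 counts. The last pair was below all other libraries in CPM but differed within itself, 622.1 against 330.9 CPM, and the log2 change was -0.93 (SE 0.23, adjusted p = 0.0271; 0.0736 with a model of the 2 groups alone).

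ADM, the vasodilator peptide adrenomedullin, had 364 and 262 counts under the NC mimic, 340 and 307 under miR-200a, and 135 and 162 in the pair labelled miR-200a plus ELK3, with a log2 change of -0.93 (SE 0.16, adjusted p = 0.00828). CA12, a membrane carbonic anhydrase that regulates pH, had 790 and 580, 864 and 887, and 431 and 531 counts, with a log2 change of -0.67 (SE 0.14, adjusted p = 0.0155; 0.0532 with a model of the 2 groups alone). For both genes the pair labelled miR-200a plus ELK3 were the lowest in CPM and did not overlap the others. CA9, the carbonic anhydrase often used as a marker of hypoxia, had 62 and 55, 94 and 80, and 49 and 18 counts, with a log2 change of -1.18 (SE 0.39, adjusted p = 0.0705). Its last pair was the lowest in CPM, 11.6 and 4.23 against 13.8 to 19.5, and CA9 was the gene of the list whose values in that pair lay farthest apart.

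BNIP3L, a mitophagy receptor also called NIX, had 1022 and 670 counts under the NC mimic, 1112 and 1161 under miR-200a, and 655 and 533 in the pair labelled miR-200a plus ELK3, with a log2 change of -0.74 (SE 0.14, adjusted p = 0.0101). Its paralog BNIP3 had a log2 change of -0.34 (SE 0.15, adjusted p = 0.150); 39 annotated pseudogenes carry the name of BNIP3, and how reads shared with them were counted is not stated. ANKRD37, an ankyrin-repeat gene known as a HIF-1 target, had 211 and 174, 187 and 166, and 77 and 65 counts, with a log2 change of -1.12 (SE 0.20, adjusted p = 0.00927). The pair labelled miR-200a plus ELK3 was below all other libraries for both BNIP3L and ANKRD37. The annotated 3′ end of ANKRD37 overlaps UFSP2 on the opposite strand and that of BNIP3L overlaps PNMA2, and whether counting used strand is not stated. UFSP2 had a log2 change of -0.34 (SE 0.14, adjusted p = 0.139) with 322 to 514 counts and was lower against the NC mimic (-0.64, SE 0.14, adjusted p = 0.0199), and PNMA2 had 3 to 23 counts. KDM3A, a histone demethylase, had a log2 change of -0.42 (SE 0.18, adjusted p = 0.143).

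**Figure D3:**
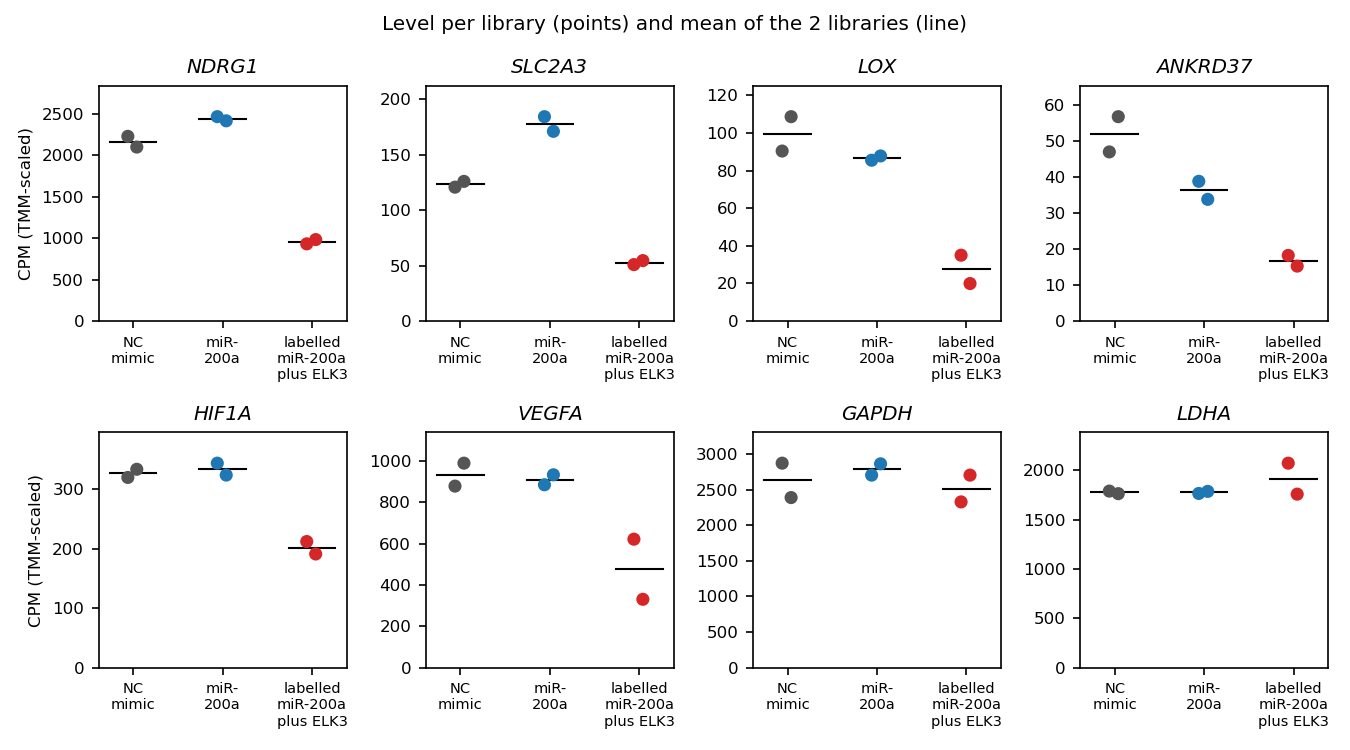
Level of 8 genes in CPM (y axis, from 0, scaled by TMM) in each library (points) of the 3 groups, with lines at the mean of each pair. For NDRG1, SLC2A3, LOX, ANKRD37, HIF1A and VEGFA both libraries of the pair labelled miR-200a plus ELK3 lie below the other 4, while GAPDH and LDHA overlap between groups.

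Among the 4 enzymes that modify collagen, 3 fell (75%, where 12.9% of all genes were called). LOX, lysyl oxidase, had 406 and 333 counts under the NC mimic, 412 and 431 under miR-200a, and 148 and 85 in the pair labelled miR-200a plus ELK3. Its log2 change was -1.66 (SE 0.23, adjusted p = 0.00348), or 3.15-fold lower, and the last pair, at 35.1 and 20.0 CPM, was far below the 85.5 to 108.7 CPM of the other libraries. P4HA1, the catalytic subunit of collagen prolyl 4-hydroxylase, had 2122 and 1639, 2105 and 2062, and 1243 and 890 counts, with a log2 change of -0.77 (SE 0.16, adjusted p = 0.0155; 0.0518 with a model of the 2 groups alone). LOXL2 had 642 and 615 counts in the pair labelled miR-200a plus ELK3, with a log2 change of -0.53 (SE 0.12, adjusted p = 0.0188; 0.0634 with a model of the 2 groups alone). For P4HA1 and LOXL2 as well, both libraries of the last pair were below the other 4 in CPM. P4HA2, a second catalytic subunit, had a log2 change of -0.23 (SE 0.16, adjusted p = 0.364).

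The summed level of the 14 HIF targets was 5086 and 5194 CPM with the NC mimic, 5161 and 5102 CPM under miR-200a, and 2806 and 2372 CPM in the pair labelled miR-200a plus ELK3. NDRG1 and VEGFA make up much of this sum. Without them it was 1981 and 2107, 1813 and 1757, and 1253 and 1059 CPM in the same order, and the last pair remained the lowest. The miR-200a pair then lay below the NC mimic pair. The whole list took 1.65% to 1.69% of all counts in the 4 libraries of the other groups and 1.37% and 1.46% in the pair labelled miR-200a plus ELK3.

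**Figure D4:**
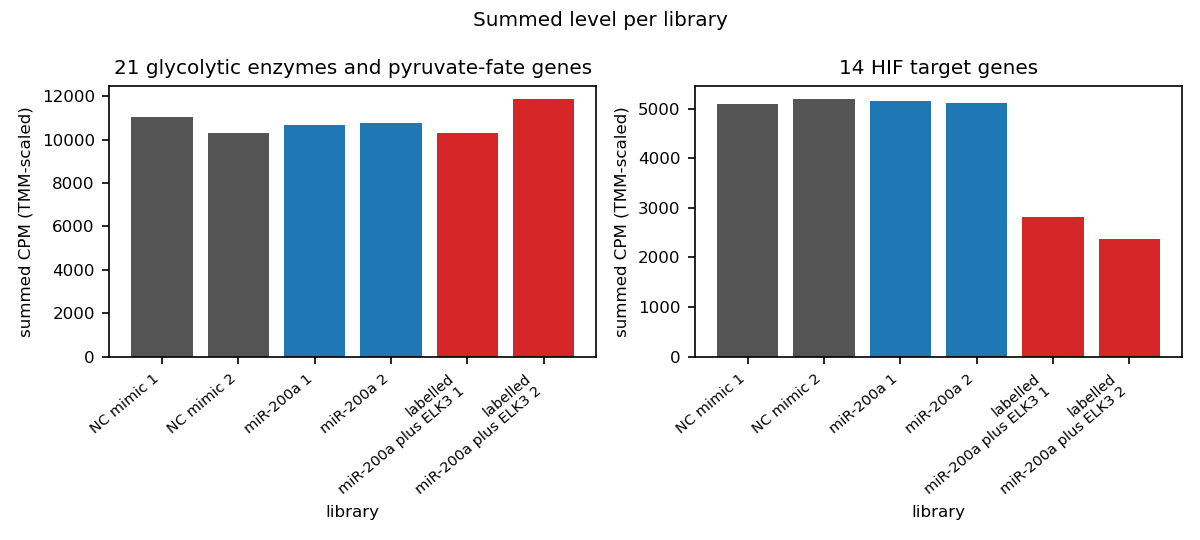
Summed CPM (y axis, from 0) of the 21 genes of glycolysis and pyruvate fate (left) and of the 14 HIF targets (right) in each library (bars). The left sums lie between 10280 and 11870 CPM, while the right sums are 5086 to 5194 CPM in 4 libraries and 2806 and 2372 CPM in the pair labelled miR-200a plus ELK3.

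The third comparison, of the pair labelled miR-200a plus ELK3 against the NC mimic, shares the former with the second comparison and the NC mimic with the first, and is not independent of either. Of the 42 genes, 14 fell and none rose (33.3%), where the test called 12.9% of all genes, 6.92% higher and 5.95% lower. The median log2 change was -0.47 over the list and 0.01 over all genes tested. Again 9 of 14 HIF targets passed, with a median of -0.98, and 3 of the 20 tested genes of glycolysis and pyruvate fate. With a model of the 2 groups alone, 9 genes passed, where 4.73% of all genes did. They were SLC2A3, ENO2, HIF1A, ADM, NDRG1, ANKRD37, P4HA1, LOX and LOXL2. Of these, ENO2, HIF1A and P4HA1 did not pass with limma on quantile-normalized values. The count of 14 depended on the library left out, as did the number of calls over all genes. Both were lower without an NC mimic or miR-200a library and higher without a library labelled miR-200a plus ELK3. The median log2 change of the list ran from -0.509 to -0.405 in these fits.

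The log2 change against the NC mimic was -1.85 (SE 0.23, adjusted p = 0.00161) for LOX, or 3.61-fold lower, and -1.62 (SE 0.20, adjusted p = 0.00155) for ANKRD37, or 3.08-fold lower. UFSP2, which overlaps the 3′ end of ANKRD37, was also lower in this comparison (-0.64, adjusted p = 0.0199), and its part in the ANKRD37 counts was not tested. It was -1.25 (SE 0.16, adjusted p = 0.00194) for ADM and -1.22 (SE 0.14, adjusted p = 0.000913) for SLC2A3. NDRG1 had -1.18 (SE 0.10, adjusted p = 0.000246), LOXL2 had -1.13 (SE 0.12, adjusted p = 0.00071), and ENO2 had -1.04 (SE 0.18, adjusted p = 0.00778). P4HA1, VEGFA, PFKFB4, HIF1A, CA12, BNIP3L and HK2 fell by 1.00, 0.97, 0.72, 0.70, 0.69, 0.67 and 0.58 on the log2 scale, with adjusted p from 0.00525 for P4HA1 to 0.0391 for HK2. SLC2A1 (-0.43, adjusted p = 0.0587), EPAS1 (-0.73, adjusted p = 0.0545) and CA9 (-0.99, adjusted p = 0.124) did not pass. GAPDH, PGK1, LDHA, PDK1 and EGLN3 had log2 changes of -0.06, -0.31, 0.11, -0.47 and 0.31, with adjusted p from 0.102 to 0.760.

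The levels took different courses over the groups. SLC2A3 and EPAS1 were highest with miR-200a and lowest in the pair labelled miR-200a plus ELK3, whereas LOXL2 and ANKRD37 were highest with the NC mimic, lower with miR-200a and lowest in the third group. HIF1A, CA12, VEGFA and BNIP3L lay within 0.07 of 0 on the log2 scale between the first groups and fell in the third. Of these steps, those between miR-200a and the NC mimic did not pass the test with all 6 libraries in the model.

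**Figure D5:**
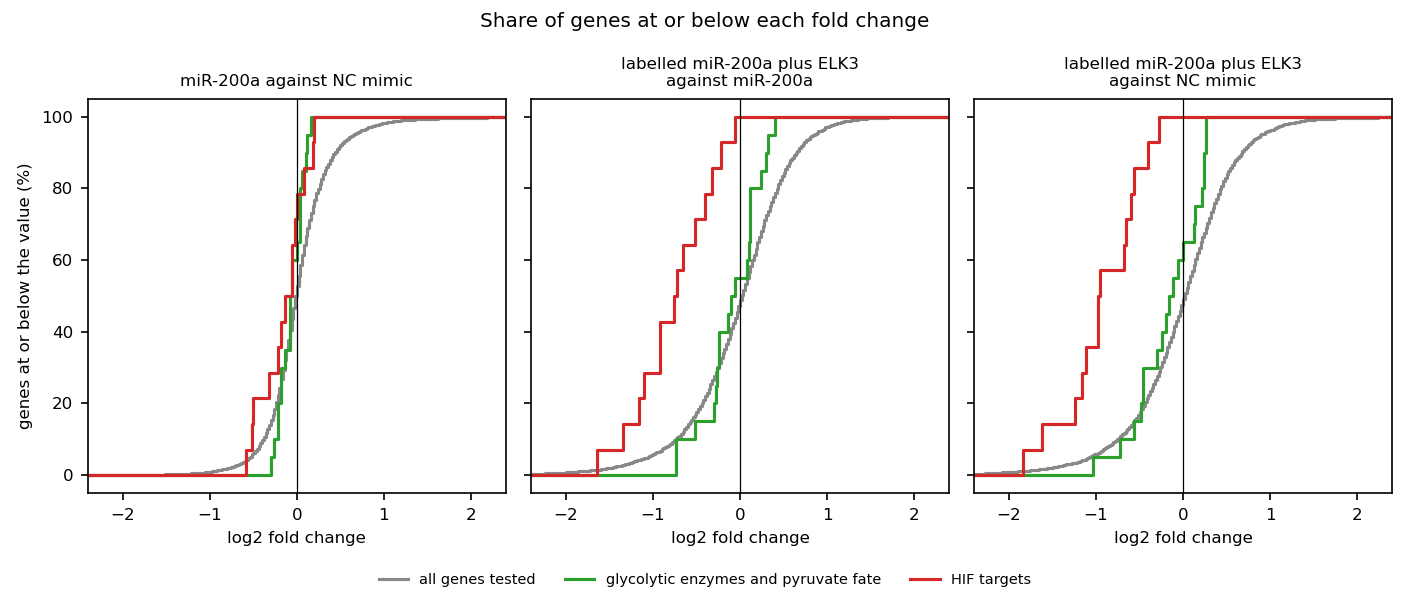
Share of genes (y axis, %) at or below each log2 change (x axis) for all genes tested (grey), the 20 tested genes of glycolysis and pyruvate fate (green) and the 14 HIF targets (red), in each of the 3 comparisons. The red curve lies to the left of the grey one in both comparisons of the pair labelled miR-200a plus ELK3, with medians of -0.75 and -0.98, while the green medians are -0.10 and -0.15. Between miR-200a and the NC mimic the red median is -0.11, the green -0.08 and that of all genes -0.02.

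Genes of the same pathways outside the list were followed in lists chosen by name. Earlier results of these data were known at that choice, so the shares below are not an independent check. Of 34 other known HIF targets tested, 12 fell and 1 rose between miR-200a and the pair labelled miR-200a plus ELK3 (38.2%, where 12.9% of all genes were called), with a median log2 change of -0.44. The 4 with the smallest p were STC1, the hormone stanniocalcin-1 (-1.38, SE 0.11, adjusted p = 0.000254), BHLHE40, a transcriptional repressor (-1.97, SE 0.22, adjusted p = 0.00154), HILPDA, a lipid droplet protein (-1.07, SE 0.14, adjusted p = 0.00288), and MXI1, an antagonist of MYC (-1.09, SE 0.16, adjusted p = 0.00429). BHLHE40 had 387 and 265 counts under the NC mimic, 380 and 368 under miR-200a, and 105 and 61 in the pair labelled miR-200a plus ELK3, without overlap. The gene that rose, TFRC, the transferrin receptor (0.81, SE 0.15, adjusted p = 0.00959), is named because it was the exception and was chosen after its value was seen. Against the NC mimic 10 of the 34 fell and 1 rose (32.4%, where 12.9% of all genes were called), and the 4 with the smallest p were STC1, HILPDA, BHLHE40 and DDIT4, an inhibitor of mTORC1 signalling, with log2 changes of -1.24, -1.52, -2.14 and -0.93. The gene that rose there was ERO1A, which oxidizes disulfide isomerase in the endoplasmic reticulum. It also was the single gene of this list called with miR-200a against the NC mimic, at 0.94 (SE 0.14, adjusted p = 0.0342), with 576 and 455 counts against 1231 and 1339.

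Among 19 tested regulators of HIF, 4 passed between miR-200a and the pair labelled miR-200a plus ELK3 (21.1%, against 12.9% of all genes). The chaperones HSP90AA1 and HSP90AB1, which stabilize HIF-1 alpha among many clients, rose by 0.69 (SE 0.11, adjusted p = 0.00503) and 0.46 (SE 0.10, adjusted p = 0.0196), and so did the coactivator CREBBP, by 0.61 (SE 0.18, adjusted p = 0.0481). ARNT2, a partner of the alpha subunits, fell by 1.43 on the log2 scale (SE 0.40, adjusted p = 0.0444) with 9 to 52 counts per library. With a model of the 2 groups alone, HSP90AA1 passed and the other 3 did not. Against the NC mimic only HSP90AA1 and HSP90AB1 passed, both higher (10.5% of the list, against 12.9% of all genes), and both calls were lost when either NC mimic library was left out.

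At the entry of pyruvate into the mitochondrion, 1 of 13 tested genes changed with miR-200a against the NC mimic (7.69%, where 0.269% of all genes were called) and 2 between miR-200a and the pair labelled miR-200a plus ELK3 (15.4%, against 12.9%). PDHA1, the alpha subunit of pyruvate dehydrogenase, had 477 and 372 counts under the NC mimic, 305 and 285 under miR-200a, and 306 and 322 in the pair labelled miR-200a plus ELK3. Its log2 change was -0.90 with miR-200a (SE 0.15, adjusted p = 0.0416) and -0.62 in the pair labelled miR-200a plus ELK3 (SE 0.15, adjusted p = 0.0239), both against the NC mimic. Both NC mimic libraries were above the other 4 in CPM, without overlap. Leaving out any single library of the NC mimic or of miR-200a ended the calls of both PDHA1 and ERO1A in the first comparison, with adjusted p up to 0.779 and 0.652. PDK4, a kinase that inhibits the complex, and PDP1, a phosphatase that activates it, both fell between miR-200a and the pair labelled miR-200a plus ELK3, by 1.52 (SE 0.32, adjusted p = 0.0170) and 0.76 (SE 0.13, adjusted p = 0.00782) on the log2 scale.

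In the remaining lists the share of called genes between miR-200a and the pair labelled miR-200a plus ELK3 was 8.33% to 12.5%, where 12.9% of all genes were called. Of 17 tested isozymes and transporters outside the list, 2 fell, HKDC1, a hexokinase-like enzyme (-1.67, SE 0.24, adjusted p = 0.00356), and SLC2A12, the glucose transporter GLUT12 (-1.16, SE 0.24, adjusted p = 0.0163). Against the NC mimic 4 of the same list passed (23.5%, against 12.9% of all genes), HKDC1 and SLC2A12 lower and SLC2A8, another glucose transporter, and FBP1, a gluconeogenic phosphatase, higher, at 1.03 (adjusted p = 0.0120) and 1.19 (adjusted p = 0.0453). The call of FBP1, with 14 to 62 counts per library, held under 5 of 16 alternatives, with adjusted p up to 0.257. Of 12 tested genes of glycogen metabolism 1 fell, PPP1R3B, which targets protein phosphatase 1 to glycogen, by 1.79 on the log2 scale (SE 0.20, adjusted p = 0.0016). Of 8 genes of the pentose phosphate pathway 1 fell, H6PD, its enzyme in the endoplasmic reticulum (-0.82, SE 0.20, adjusted p = 0.0252). Of 16 genes of the tricarboxylic acid cycle, SUCLG1 rose (0.69, SE 0.14, adjusted p = 0.0147) and SUCLG2 fell (-0.78, SE 0.18, adjusted p = 0.0211), both subunits of succinyl-CoA ligase. In the comparison with the NC mimic 4 of the 16 passed (25%, against 12.9% of all genes), ACO1 and SUCLG2 lower and IDH3A and SUCLG1 higher. Each of the genes of the cycle and of the isozymes and transporters called against the NC mimic lost its call when either NC mimic library was left out. Of the genes outside the list named for the second comparison, PPP1R3B, STC1 and BHLHE40 kept their call when either miR-200a library was left out, and the others lost it.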

How the data were processed

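The authors deposited 6 tables of raw read counts by gene symbol, one per QuantSeq library. Per the submitters' processing notes, Bowtie2, hg19 and edgeR were used; the counting program, its strand setting and the annotation are not given in the sources used here. Each library lists 25737 lines; lines that share a symbol (286 symbols, none of the list) were summed. The analysis used edgeR 4.0.16 under R 4.3.3 (TMM, filterByExpr with a minimum count of 10, quasi-likelihood test, all 6 libraries in a single model, 3 residual degrees of freedom), and p-values were adjusted over the 12650 genes tested by the Benjamini-Hochberg method. CPM values are counts scaled by TMM. The steps were tested on simulated data with the same spread in every group. That test does not cover the wider spread of the pair labelled miR-200a plus ELK3. Alternatives were DESeq2 1.42.0, limma 3.58.1 on quantile-normalized log2(count + 1), other filters and normalizations, only the 2 compared groups, the highest line per symbol, a replicate block, and each library left out in turn.

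The genes, their roles and the pathway lists were chosen with earlier results of these data known. Counts per library are given for every gene of the list called in a comparison and for 11 genes named at the outset; of each pathway list the called genes are named, at most 4 per comparison by smallest p. Groups come from the sample labels. Same-numbered replicates did not deviate together (correlations of -0.003, -0.036 and -0.108 over the 3 comparisons), so the number was not used as a block in the main model. Promoters and the mature miRNA come from RefSeq (GRCh38.p14), and 3′UTRs and overlaps from GENCODE 29 (GRCh38), matched by symbol, while the reads were aligned to hg19.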

Additional observations from a re-analysis of the deposited data

How the results depend on the processing

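In both comparisons of the pair labelled miR-200a plus ELK3, SLC2A3 and NDRG1 passed the test under all 16 alternatives. Between these libraries and miR-200a, the count of 15 was 8 with a model of the 2 groups alone and 2 with limma on quantile-normalized values, and it ran from 2 to 28 with 1 library left out: 2 without either miR-200a library, 8 without either NC mimic library, and 28 or 23 without the first or second library labelled miR-200a plus ELK3, which assumes that the remaining one varies like the other groups. Calls in the higher direction numbered 8 and 2 in the last 2 cases and 1 with no filter, and 0 under every other alternative of this comparison. Against the NC mimic, the count of 14 was 9 with 2 groups and 6 with limma, and ran from 4 to 28 with 1 library left out: 6 and 4 without the first and second NC mimic library, 9 without either miR-200a library, and 27 and 28 without the first and second library labelled miR-200a plus ELK3. Between miR-200a and the NC mimic, the count of 0 was 1 with DESeq2 and 1 with no filter, 8 with 2 groups, and 0 to 8 with 1 library left out, 8 being without either library labelled miR-200a plus ELK3. The cause was not tested. The numbers do not pair the libraries; under a replicate block the counts were 0, 13 and 12, and with the numbers of the pair labelled miR-200a plus ELK3 crossed, added after seeing the data, 0, 15 and 15.

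The median of -0.29 against miR-200a was -0.30 with DESeq2, -0.30 with no filter, -0.31 with a minimum of 10 counts per library, -0.36 with upper-quartile scaling, -0.32 with library totals, -0.35 with limma and -0.30 with the crossed block, and ran from -0.37 to -0.29 with 1 library left out. The median of -0.47 against the NC mimic was -0.53 with upper-quartile scaling and ran from -0.51 to -0.41, and that of -0.07 with miR-200a was -0.0286 with limma. Values near 0 changed sign. With miR-200a against the NC mimic, LDHA was 0.011 with DESeq2, 0.022 with no filter, 0.00842 with a minimum of 10 counts, 0.0082 with upper-quartile scaling, 0.017 with library totals, 0.018 with 2 groups and 0.086 with limma, and VEGFA was 0.023 with limma. With 1 library left out in that comparison, LDHA ran from -0.011 to 0.018, GAPDH from -0.045 to 0.22, HIF1A from -0.013 to 0.074, CA9 from -0.0033 to 0.37 and VEGFA from -0.12 to 0.050. LDHA ran from -0.012 to 0.18 between miR-200a and the pair labelled miR-200a plus ELK3. Against the NC mimic, GAPDH was 0.12 with limma, and with 1 library left out GAPDH ran from -0.21 to 0.075, ENO1 from -0.089 to 0.53 and EGLN3 from -0.27 to 1.08. None of the values whose sign had changed passed the test. The depth limits EGLN3, CA9 and SLC16A1, with under 100 counts in every library.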
